A study of Homo sapiens with 8 samples.

Results

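The endoderm and intestinal transcription factors *CDX1*, *CDX2*, *HNF4A*, *FOXA1*, *FOXA2*, *GATA6*, *KLF5* and *SOX9* were followed by symbol through the RNA-seq of HCT-116, a line of human colorectal cancer cells, and all 8 were found among the 20030 rows of each library. The cells had been transiently transfected with siRNA and fell into 4 groups: a control siRNA (siNC, 2 libraries), siRNAs against *HHEX* (siHHEX, 3 libraries), siRNAs against *YAP1* and *WWTR1*, the gene of TAZ (siYAP/TAZ, 2 libraries), and siRNAs against all 4 TEAD genes, *TEAD1* to *TEAD4* (siTEAD1/2/3/4, 1 library). All libraries came from this single cell line, and by the numbering in the labels and methods the replicates of siHHEX and of siYAP/TAZ also differed in siRNA. The label of siHHEX 3 gives its knockdown under another tag than the labels of the other libraries, and whether it was sequenced with them is not stated. The spread within these groups therefore includes that between siRNAs, whereas neither the labels nor the account of the RNA-seq says whether the siNC libraries were separate cultures, and every p-value below measures the spread between these libraries.

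These factors work as a layered network. FOXA and GATA proteins open chromatin in the early endoderm, CDX proteins then give the hindgut its intestinal identity, and HNF4A together with CDX2 holds the differentiated epithelium in that state. KLF5 and SOX9 belong mainly to the dividing crypt cells of the intestine. HHEX, a homeodomain protein, is itself a factor of the early endoderm, and YAP, TAZ and the TEAD proteins are the transcriptional end of the Hippo pathway, with YAP active in regenerating intestinal epithelium. The study asked how the genes controlled by HHEX overlap with those controlled by YAP, TAZ and the TEADs, and the comparisons here follow the gut factors through the same knockdowns.

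Each gene had 1 FPKM value per library, which scales fragments to transcript length and to library total, so that levels can be set side by side between genes. FPKM sums ranged from 331663 (siYAP/TAZ 1) to 383423 (siHHEX 3). Read numbers are unknown, but relative depths, read from how the lowest values are spaced, were 0.927 (siTEAD1/2/3/4) to 1.11 (siHHEX 3) times that of siNC 1. Changes are differences in log2(FPKM + 1), tested for 10677 genes, those reaching 1 FPKM in 2 or more libraries. A change on this scale understates the fold of a gene with a low level. In bulk RNA, fewer cells with a transcript and less transcript per cell cannot be told apart.

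*HHEX*, the siRNA target, was at 8.60 and 9.06 FPKM in siNC 1 and 2, and at 3.25, 3.54 and 1.85 FPKM in siHHEX 1, 2 and 3. All siHHEX libraries lay below both siNC libraries. Some other targets moved in siHHEX as well. *YAP1* was at 5.77, 17.4 and 6.93 FPKM in siHHEX 1, 2 and 3, below its 20.2 and 19.7 FPKM in siNC, and fell by 1.07 on the log2 scale (limma, Benjamini-Hochberg adjusted p = 0.0429). *TEAD1* fell by 1.25 and *TEAD2* rose by 0.78 (limma, adjusted p of 0.00641 and 0.00709). With all genes corrected for GC content and transcript length, as described further on, *TEAD1* was still called, whereas *YAP1* was at -0.76 and *TEAD2* at 0.47 (limma, adjusted p of 0.161 and 0.0739). *TEAD4* in siHHEX was at -0.11 (limma, adjusted p = 0.503) and was called as lower only after the correction (-0.51, limma, adjusted p = 0.031). *WWTR1* and *TEAD3* were not called in siHHEX (-0.055 and 0.29, limma, adjusted p of 0.82 and 0.094). The correction left both uncalled (0.31 and -0.0071, limma, adjusted p of 0.366 and 0.97). In siYAP/TAZ, *YAP1* was at 6.90 and 8.39 FPKM, a change of -1.28 that was not called (limma, adjusted p = 0.0681) and was called after the correction (-1.395, limma, adjusted p = 0.035). *WWTR1* was at 2.64 and 2.58 FPKM (6.80 and 6.72 FPKM in siNC), and *HHEX* itself was at 4.80 and 7.12 FPKM (-0.52, limma, adjusted p = 0.196). *TEAD4* fell by 0.63 in siYAP/TAZ (limma, adjusted p = 0.025), and by 0.72 after the correction. In siTEAD1/2/3/4, *TEAD4* was at 5.56 FPKM and the siNC mean at 20.8 ± 0.663 FPKM (SD, n = 2), whereas *TEAD3* was at 9.08 FPKM and its siNC mean at 7.18 ± 0.262 FPKM (SD, n = 2). The differences of the other targets, *TEAD1* and *TEAD2*, from siNC were -0.97 and -0.36 in this library. The part of *YAP1* and *TEAD1* in the siHHEX values of the gut factors was not tested.

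In control cells the crypt factors were the abundant ones. *KLF5* was highest at 24.6 ± 0.298 FPKM (SD, n = 2), followed by *SOX9* at 14.0 ± 0.231 FPKM and *CDX2* at 4.16 ± 0.427 FPKM. *GATA6* and *HNF4A* were lower, with values in siNC 1 and 2 of 2.31 and 1.75 FPKM and of 1.44 and 1.09 FPKM. *FOXA1* was at 0.915 and 0.585 FPKM, *FOXA2* was close to 0, and *CDX1* was listed at 0. The ranges of *KLF5*, *SOX9* and *CDX2* in siNC did not overlap one another or those of the others, and those of *GATA6* and *HNF4A* did not overlap either, although only 2 libraries stand behind each range. The filter on low values left 5 factors for testing (*KLF5*, *SOX9*, *CDX2*, *GATA6* and *HNF4A*), while *FOXA1*, *FOXA2* and *CDX1* did not reach 1 FPKM in 2 libraries.

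**Figure D1:**
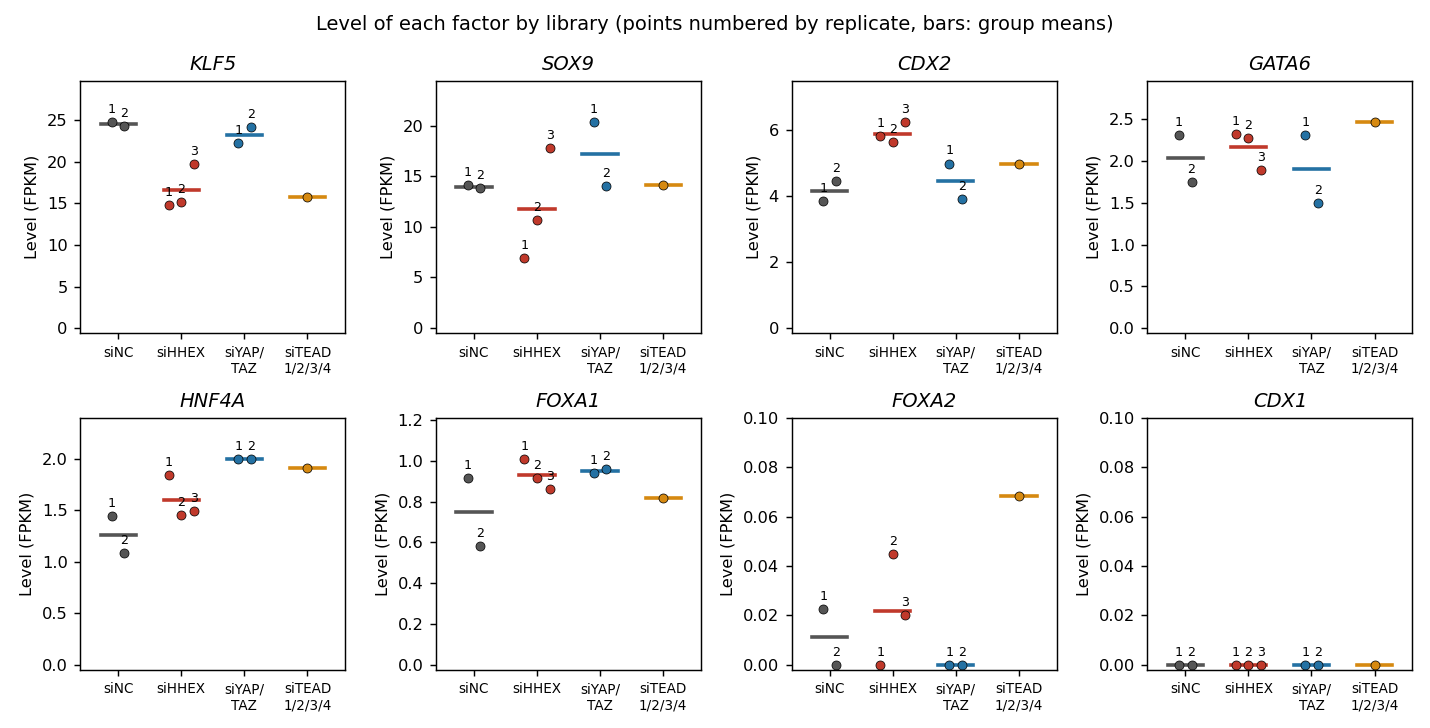
FPKM (vertical axis, a separate scale for each gene) of the 8 factors in the 8 libraries, by knockdown group (horizontal axis). Points are libraries, numbered by replicate, and horizontal bars are group means. *KLF5* was between 14.9 and 19.8 FPKM in siHHEX, below the siNC libraries, *CDX2* was between 5.64 and 6.24 FPKM, above them, *SOX9* spread from 6.95 to 17.8 FPKM within siHHEX, and *CDX1* was listed at 0 throughout.

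*CDX2*, the homeodomain factor that specifies intestine and is used as a marker of colorectal tumours, lies on the minus strand of chromosome 13 (chr13:27960918-27969315, GRCh38). It was at 3.86 and 4.47 FPKM in siNC 1 and 2, at 5.81, 5.64 and 6.24 FPKM in siHHEX 1, 2 and 3, at 4.99 and 3.91 FPKM in siYAP/TAZ 1 and 2, and at 4.98 FPKM in siTEAD1/2/3/4. All siHHEX libraries lay above every other library, and the siYAP/TAZ range overlapped that of siNC. On average *CDX2* in siHHEX was at 142% of siNC, and it rose by 0.42 on the log2 scale (standard error 0.136, 95% interval 0.114 to 0.725, limma, Benjamini-Hochberg adjusted p = 0.042). Its change after the correction for GC and length was 0.14 (95% interval -0.122 to 0.399, limma, adjusted p = 0.477). Without siNC 1, siNC 2, siHHEX 1 or siHHEX 3 the change was 0.33, 0.50, 0.43 and 0.38 and was not called (limma, adjusted p of 0.305, 0.142, 0.0822 and 0.082), in fits that called 19, 27, 2109 and 2514 of all genes in place of 3518. A fit without an siNC library has 1 control library, which is assumed to vary like those of the other groups. Its paralog *CDX1* (chr5:150166778-150184558, plus strand), which shares the intestinal role, was listed at 0 in all 8 libraries.

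*KLF5*, a zinc finger factor that drives the proliferation of crypt cells, lies on the plus strand of the same chromosome (chr13:73054976-73077541). It was at 24.8 and 24.4 FPKM in siNC 1 and 2, at 14.9, 15.1 and 19.8 FPKM in siHHEX 1, 2 and 3, at 22.3 and 24.2 FPKM in siYAP/TAZ 1 and 2, and at 15.8 FPKM in siTEAD1/2/3/4. The siHHEX libraries and siTEAD1/2/3/4 lay below all siNC and siYAP/TAZ libraries, and siHHEX 3 stood nearest to them. The siHHEX mean of 16.6 ± 2.76 FPKM (SD, n = 3) was 67.5% of the siNC mean, and the single siTEAD1/2/3/4 value was 64.4% of it. In siHHEX, *KLF5* fell by 0.55 in log2 units (standard error 0.143, 95% interval -0.872 to -0.23, limma, Benjamini-Hochberg adjusted p = 0.0203). After the correction for GC and length the change was -0.35 (95% interval -0.685 to -0.00629, limma, adjusted p = 0.18), and in the corrected fits without siHHEX 1, 2 or 3 it was -0.29, -0.24 and -0.50 (limma, adjusted p of 0.334, 0.298 and 0.0412). Without siNC 1, siNC 2 or siHHEX 1 and with no correction, the change was -0.54, -0.56 and -0.48 and was not called (limma, adjusted p of 0.157, 0.126 and 0.0593), where the same fits called 19, 27 and 2109 of all genes.

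The promoters of *CDX2* and *KLF5*, the factors whose changes passed the test, are shown because HHEX and the TEADs are DNA-binding proteins with known core words. These are the RefSeq sequences in GRCh38.p14 from 250 bases before to 50 bases after a transcription start, read 5′ to 3′ on the strand of the gene. The capitals mark the words TAAT (the core of homeodomain sites), GATAA (the core of GATA sites) and CATTCC (the core of TEAD sites), found on either strand, so that ATTA, TTATC and GGAATG are capitals too.
CDX2, chr13:27969266-27969565, minus strand: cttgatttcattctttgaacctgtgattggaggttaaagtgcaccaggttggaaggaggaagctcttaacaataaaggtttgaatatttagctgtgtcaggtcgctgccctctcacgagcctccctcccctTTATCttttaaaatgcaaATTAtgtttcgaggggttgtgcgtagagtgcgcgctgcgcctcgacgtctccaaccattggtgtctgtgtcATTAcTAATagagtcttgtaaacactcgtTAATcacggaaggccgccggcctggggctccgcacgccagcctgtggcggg
KLF5, upstream start, chr13:73054726-73055025, plus strand: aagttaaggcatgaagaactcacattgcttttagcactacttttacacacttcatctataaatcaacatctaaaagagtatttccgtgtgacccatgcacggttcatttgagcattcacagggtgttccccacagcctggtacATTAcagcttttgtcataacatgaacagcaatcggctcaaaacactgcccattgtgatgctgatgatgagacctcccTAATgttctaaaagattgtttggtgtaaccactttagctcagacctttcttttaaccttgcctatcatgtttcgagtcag
KLF5, downstream start, chr13:73058755-73059054, plus strand: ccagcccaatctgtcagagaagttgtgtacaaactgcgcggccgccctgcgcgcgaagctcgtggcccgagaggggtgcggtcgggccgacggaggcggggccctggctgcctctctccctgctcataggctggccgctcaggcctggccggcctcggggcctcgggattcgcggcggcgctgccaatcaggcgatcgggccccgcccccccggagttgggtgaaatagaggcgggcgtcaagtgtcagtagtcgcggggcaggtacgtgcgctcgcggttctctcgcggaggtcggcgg
The *CDX2* window held 4 copies of TAAT and 1 of GATAA. The upstream window of *KLF5* held 2 copies of TAAT at a GC content of 40.7%, and the downstream window held none of the 3 words at a GC content of 71.3%. CATTCC was in none of the 3 windows. Among all 35116 promoters of this length, 50.2% held TAAT, 22.7% held GATAA and 14.0% held CATTCC. Of the other factors, *HNF4A*, *GATA6* and *FOXA1* also matched this table, and none of their windows held CATTCC. The downstream window of *HNF4A* held 4 copies of TAAT and 1 of GATAA, the same counts as *CDX2*. Its upstream window held 1 copy of each. The *FOXA1* window held 1 TAAT and the *GATA6* window held none of the 3 words.

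*SOX9*, an HMG box factor of crypt stem and Paneth cells, lies on chromosome 17 (chr17:72121020-72126416, plus strand) and varied more within siHHEX than any other tested factor. It was at 14.1 and 13.8 FPKM in siNC 1 and 2, at 6.95, 10.7 and 17.8 FPKM in siHHEX 1, 2 and 3, at 20.3 and 14.1 FPKM in siYAP/TAZ 1 and 2, and at 14.1 FPKM in siTEAD1/2/3/4. Thus siHHEX 1 and 2 lay below both siNC libraries and siHHEX 3 lay above them. The log2 changes of siHHEX 1, 2 and 3 from the siNC mean were -0.91, -0.35 and 0.33, and their mean change of -0.31 (standard error 0.303, 95% interval -0.994 to 0.369) did not pass (limma, Benjamini-Hochberg adjusted p = 0.43). Without siHHEX 3 it was -0.63 (limma, adjusted p = 0.0678), and without siHHEX 1 it was -0.013 (limma, adjusted p = 0.972).

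*HNF4A*, a nuclear receptor that maintains the differentiated gut epithelium, lies on chromosome 20 (chr20:44355699-44432845, plus strand). It was at 1.44 and 1.09 FPKM in siNC 1 and 2, at 1.85, 1.45 and 1.49 FPKM in siHHEX 1, 2 and 3, at 2.00 and 2.00 FPKM in siYAP/TAZ 1 and 2, and at 1.91 FPKM in siTEAD1/2/3/4. Both siYAP/TAZ libraries and the siTEAD1/2/3/4 library lay above all others, and siHHEX 2 lay just above siNC 1. In siHHEX the change was 0.20 (95% interval -0.0994 to 0.497, limma, adjusted p = 0.256). It was 0.31 without siNC 1, 0.085 without siNC 2 and 0.054 after the correction for GC and length. The siYAP/TAZ mean was 158% of the siNC mean. The change in siYAP/TAZ was 0.41 (standard error 0.145, 95% interval 0.0832 to 0.736), which did not pass the test (limma, unadjusted p = 0.0193, Benjamini-Hochberg adjusted p = 0.107).

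*GATA6*, a zinc finger factor of the endoderm that is also active in colorectal tumours, lies on chromosome 18 (chr18:22169589-22202528, plus strand). It was at 2.31 and 1.75 FPKM in siNC 1 and 2, at 2.32, 2.27 and 1.89 FPKM in siHHEX 1, 2 and 3, at 2.31 and 1.5 FPKM in siYAP/TAZ 1 and 2, and at 2.46 FPKM in siTEAD1/2/3/4. The siNC, siHHEX and siYAP/TAZ ranges overlapped. Its change of 0.063 in siHHEX had a 95% interval of -0.296 to 0.423, and that of -0.070 in siYAP/TAZ had one of -0.464 to 0.324 (limma, adjusted p of 0.77 and 0.833).

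The forkhead factors FOXA1 and FOXA2 are pioneer proteins that bind closed chromatin. *FOXA1* (chr14:37589552-37596059, minus strand) was at 0.915 and 0.585 FPKM in siNC 1 and 2, at 1.01, 0.918 and 0.863 FPKM in siHHEX 1, 2 and 3, at 0.940 and 0.961 FPKM in siYAP/TAZ 1 and 2, and at 0.817 FPKM in siTEAD1/2/3/4. The low library was siNC 2, and siNC 1 lay within the range of the siHHEX libraries. *FOXA2* (chr20:22580998-22585455, minus strand) was listed at 0 in 4 of the 8 libraries, and at 0.0226, 0.0450, 0.0201 and 0.0685 FPKM in siNC 1, siHHEX 2, siHHEX 3 and siTEAD1/2/3/4. The last 3 values were 1.99, 0.886 and 3.03 times the siNC 1 value, close to the steps that single fragments would give. If the siNC 1 value of *FOXA2* was 1 fragment, then the siNC 1 values stood for about 1444 fragments of *KLF5*, 966 of *SOX9*, 232 of *CDX2*, 146 of *GATA6*, 117 of *HNF4A* and 56 of *FOXA1*. Counting error alone would then be 2.6% of the *KLF5* value, 6.6% of the *CDX2* value and 9.3% of the *HNF4A* value.

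Counted over the 5 tested factors, siHHEX had 1 that rose (*CDX2*) and 1 that fell (*KLF5*), in a comparison where 32.9% of all tested genes were called, 16.0% as higher and 16.9% as lower. In siYAP/TAZ none of the 5 was called by limma with Benjamini-Hochberg adjustment, with 1 (*HNF4A*) at an unadjusted p under 0.05, and 8.28% of all tested genes were called, 6.15% as higher and 2.13% as lower. The siYAP/TAZ changes of the others were 0.073 for *CDX2* (95% interval -0.261 to 0.408), -0.079 for *KLF5* (95% interval -0.431 to 0.273), 0.26 for *SOX9* (95% interval -0.484 to 1.01) and -0.070 for *GATA6*. Without siYAP/TAZ 1 or 2 the change of *SOX9* was 0.012 and 0.51, and that of *KLF5* was -0.023 and -0.13. After the correction for GC and length 11.4% of the genes were called in siYAP/TAZ, and none of the 5 factors. Neither *CDX2* nor *KLF5* reached a 2-fold change, and by another call rule, a 2-fold change at an unadjusted p from limma under 0.05, which 1.63% of the tested genes met in siHHEX, none of the 5 was called. The groups did not overlap for 3 of the 5 in siHHEX (*CDX2* and *HNF4A* above and *KLF5* below siNC), where 66.9% of the tested genes did not overlap. In siYAP/TAZ they did not overlap for *HNF4A* (above) and *KLF5* (below), against 67.7% of the tested genes. The median change of the 5 factors was 0.063 in siHHEX and 0.073 in siYAP/TAZ, beside medians of -0.0055 and 0.082 over all tested genes. The siHHEX and siYAP/TAZ comparisons shared the same 2 siNC libraries.

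siHHEX and siYAP/TAZ were also compared with each other. *KLF5* was lower in siHHEX by a log2 difference of -0.47 (standard error 0.143, 95% interval -0.794 to -0.151, limma, Benjamini-Hochberg adjusted p = 0.0287), and it was the only one of the 5 called, where 39.3% of all tested genes were called, 13.5% as higher and 25.9% as lower. The difference of *CDX2* was 0.35 (95% interval 0.0404 to 0.651, limma, adjusted p = 0.0684), and it was 0.20 without siYAP/TAZ 2 and 0.49 without siYAP/TAZ 1. *SOX9* differed by -0.58 (95% interval -1.26 to 0.106), *HNF4A* by -0.21 and *GATA6* by 0.13, and none of these passed. The siHHEX and siYAP/TAZ libraries did not overlap for *CDX2* (above), *KLF5* and *HNF4A* (both below), beside 60.8% of all tested genes. The median of all tested genes in this comparison was -0.13, and relative to it the differences of *KLF5* and *CDX2* were -0.34 and 0.47. With the libraries scaled to a common median, *CDX2* was called (limma, adjusted p = 0.0309) and *KLF5* was not (limma, adjusted p = 0.0751), and after the correction for GC and length none was, with *KLF5* at -0.19 and *CDX2* at 0.16 (limma, adjusted p of 0.443 and 0.389) and 8.88% of the tested genes called. The call of *KLF5* was lost when either siNC library, siHHEX 1 or either siYAP/TAZ library was left out (log2 differences between -0.53 and -0.40, adjusted p from limma between 0.0588 and 0.148), in fits that called 1026 to 2983 of all genes in place of 4200, while *SOX9* was called in its company without siHHEX 3 (-0.89, limma, adjusted p = 0.0217). Without siHHEX 1 or siYAP/TAZ 1 the *SOX9* difference was -0.28 and -0.32 (limma, adjusted p of 0.403 and 0.537).

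In siTEAD1/2/3/4, which had 1 library and no test, the log2 difference from the siNC mean was -0.60 for *KLF5*, 0.37 for *HNF4A*, 0.21 for *CDX2*, 0.20 for *GATA6* and 0.016 for *SOX9* (-0.054 after the correction for GC and length and -0.047 with the libraries scaled to a common median). With siNC 1 or siNC 2 as the only control, *CDX2* was at 0.30 and 0.13 and *GATA6* at 0.064 and 0.33. The corrected values of *HNF4A*, *CDX2* and *GATA6* were 0.23, 0.049 and 0.081. None was past 2-fold, as 0.89% of all tested genes were. Beside these values, the median of all tested genes was 0.060. The *KLF5* value lay within the 14.9 to 19.8 FPKM of the siHHEX libraries, and the *HNF4A* value lay just below the siYAP/TAZ libraries.

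**Figure D2:**
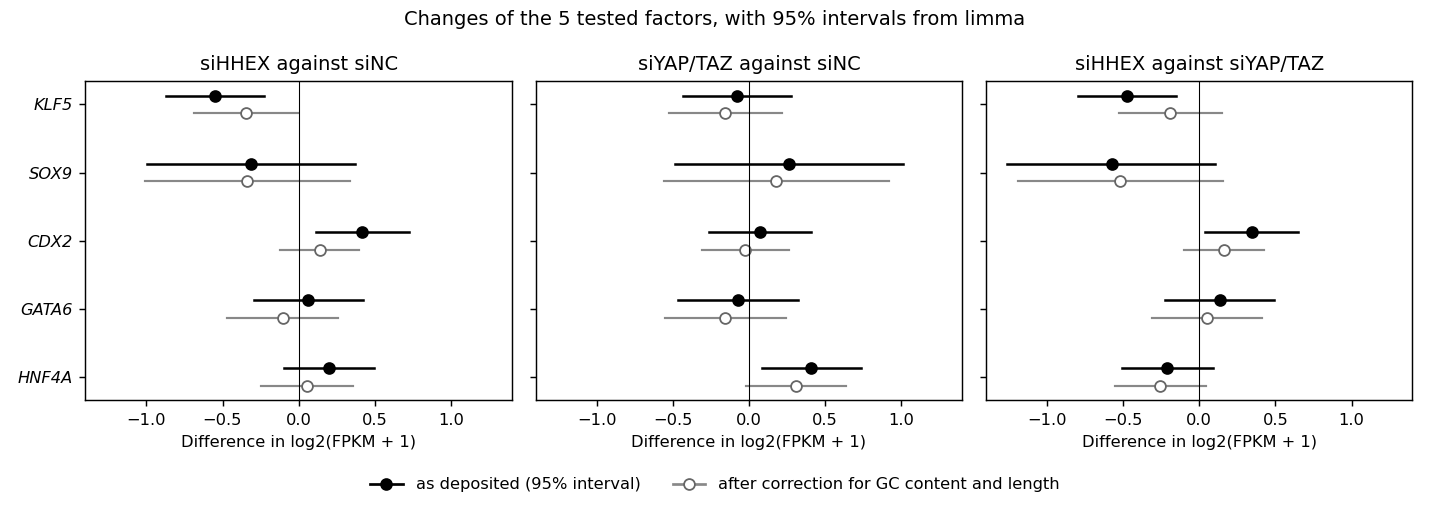
Differences in log2(FPKM + 1) (horizontal axis) of the 5 tested factors between groups, with 95% intervals from limma. Filled points are the values as deposited and open points those after correction for GC and length. For siHHEX against siNC the filled intervals of *KLF5* (-0.872 to -0.23) and *CDX2* (0.114 to 0.725) lie clear of 0, and the open ones reach -0.00629 and span 0.

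The siHHEX libraries differed from siNC along the GC content of the genes, and *CDX2* and *KLF5* sit on different sides of that trend. Across the 10617 tested genes with a GC content and length, which are not independent replicates, Spearman's coefficient between the change from the siNC mean and GC content was 0.679, 0.598 and 0.755 in siHHEX 1, 2 and 3. It was 0.0601 and -0.0518 in siYAP/TAZ 1 and 2, and 0.298 in siTEAD1/2/3/4. The 2 siNC libraries, each set against the other and so mirror images, stood at -0.211 and 0.211. The transcript of *CDX2* has a GC content of 59.6%, above the upper quartile of 57.5% of the tested genes, and that of *KLF5* has 45.3%, below their median of 49.1%. *HNF4A* and *GATA6* (both 55.0%) and *SOX9* (51.1%) lie between them. After each library was corrected for the trend, 6.75% of all tested genes were called in siHHEX and none of the 5 factors was, with only *KLF5* at an unadjusted p under 0.05. The part of this trend in the changes of *CDX2* and *KLF5* was not tested beyond these values. The corrected *KLF5* difference of siTEAD1/2/3/4 was -0.59.

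**Figure D3:**
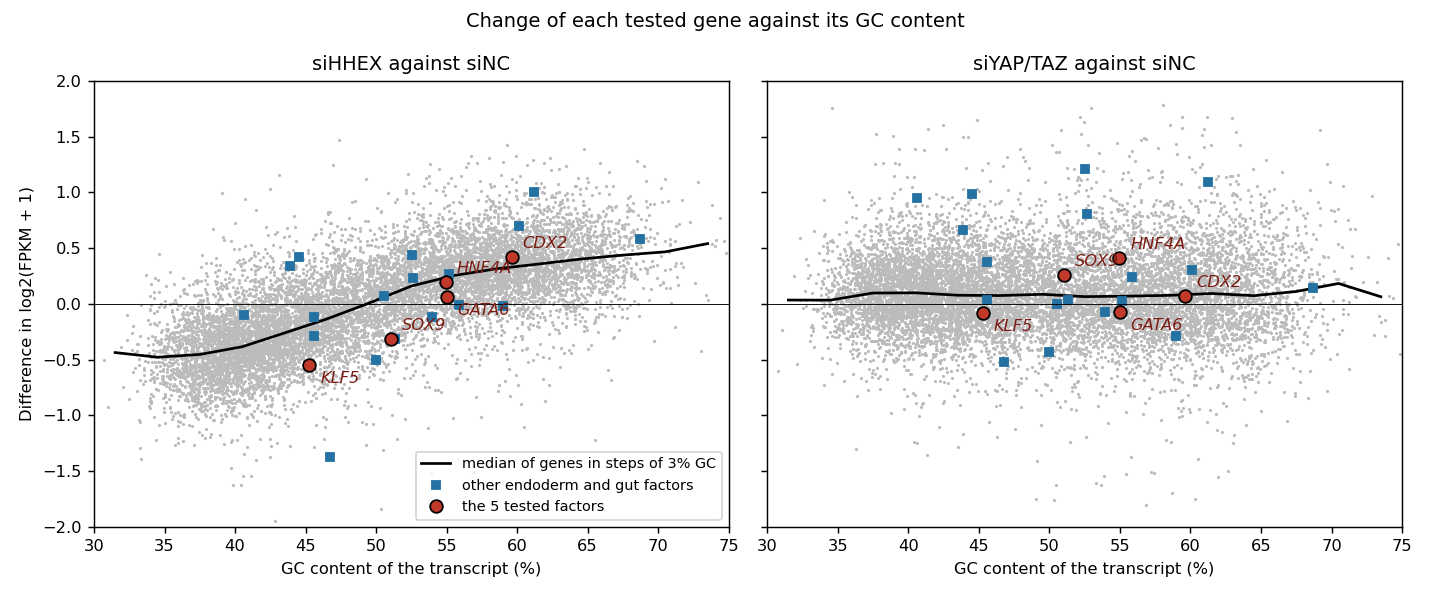
Difference in log2(FPKM + 1) from siNC (vertical axis) of each tested gene against the GC content of its transcript in percent (horizontal axis), in siHHEX and in siYAP/TAZ. Grey points are genes, the line is the median in steps of GC content, large points are the 5 tested factors and squares are the other endoderm and gut factors. Genes beyond the axes are not drawn. The siHHEX median climbs with GC content and passes close to *CDX2*, with *KLF5* below it, whereas the siYAP/TAZ median is nearly level.

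A wider list of 39 other endoderm and gut transcription factors was set beside them. Of these, 18 were tested, 8 were listed at 0 in all libraries (*GATA4*, *GATA5*, *MIXL1*, *CDX4*, *PROX1*, *NEUROG3*, *NEUROD1* and *ISX*) and 13 were too low. The most abundant in siNC were the Wnt effector *TCF7L2* (19.6 FPKM), *SOX4* (17.4 FPKM) and the differentiation factor *KLF4* (12.9 FPKM). In siHHEX 4 of the 18 rose, where 16.0% of all tested genes were called as higher and 32.9% in either direction. The 1 that fell was *HHEX*, the siRNA target, whose call was set by the knockdown and is not read as a result about the list. *ONECUT3*, of the family of liver and gut factors that bind through a cut domain, was at 2.77 and 2.23 FPKM in siNC 1 and 2 and at 4.53, 5.74 and 8.19 FPKM in siHHEX 1, 2 and 3, a change of 1.0 (limma, Benjamini-Hochberg adjusted p = 0.0108). The siHHEX libraries lay above both siNC libraries. *FOXA3*, the forkhead relative of *FOXA1* and *FOXA2*, rose by 0.70 (limma, adjusted p = 0.0129), with a siNC mean of 3.69 ± 0.0496 FPKM (SD, n = 2) and a siHHEX mean of 6.63 ± 0.458 FPKM (SD, n = 3), and it was above *FOXA1* and *FOXA2* in every library. *MNX1*, a homeodomain factor of the pancreas, rose by 0.58 (limma, adjusted p = 0.0133), and *PPARG*, a nuclear receptor of colonic epithelium, rose by 0.42 (limma, adjusted p = 0.0463). After the correction for GC and length, *HHEX* was still called, and *ONECUT3*, *FOXA3*, *MNX1* and *PPARG* were at 0.74, 0.33, 0.16 and 0.56, for which limma gave an adjusted p of 0.0557, 0.213, 0.436 and 0.0566. *MYB*, at 0.627 and 0.650 FPKM in siNC, also passed the threshold after the correction in siHHEX and in siYAP/TAZ, but it entered the test only through knockdown libraries above 1 FPKM, so that nothing is read from its call.

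In siYAP/TAZ, where 6.15% of all genes were called as higher, 4 of the 18 rose and none fell. *SOX4*, a progenitor factor, was at 18.1 and 16.8 FPKM in siNC 1 and 2 and at 39.6 and 43.8 FPKM in siYAP/TAZ 1 and 2, with 37.3 FPKM in siTEAD1/2/3/4 and 16.8, 28.5 and 28.2 FPKM in siHHEX 1, 2 and 3. Its siYAP/TAZ and siTEAD1/2/3/4 libraries lay above all others, and siHHEX 1 lay within the siNC range. The change of *SOX4* in siYAP/TAZ was 1.21 (limma, Benjamini-Hochberg adjusted p = 0.0187), and *ONECUT3* rose by 1.10, *PPARG* by 0.98 and *ELF3*, an ETS factor of differentiating epithelium, by 0.81 (limma, adjusted p of 0.0249, 0.0102 and 0.0257). These 4 were also called after the correction for GC and length, beside 11.4% of all tested genes. Of the 18, 3 were under 1 FPKM in both siNC libraries and so were tested only through knockdown libraries. The median change of the 18 was 0.031 in siHHEX, 0.19 in siYAP/TAZ and 0.34 in siTEAD1/2/3/4, beside -0.0055, 0.082 and 0.060 over all tested genes, and in siTEAD1/2/3/4 the difference was above 0 for 16 of the 18. Compared directly, 1 of the 18 was higher in siHHEX than in siYAP/TAZ (*MNX1*), against 39.3% of all genes called in either direction. Lower were 6, the siRNA target *HHEX*, set by the knockdown, and *ELF3*, *EHF*, *TCF7L2*, *PPARG* and *SOX4*. After the correction 1 was called, *ELF3* (-0.61, limma, adjusted p = 0.0355), beside 8.88% of all tested genes. The corrected differences of *SOX4* and *HHEX* were -0.74 and -0.75, near their -0.78 and -0.85 before it (limma, adjusted p of 0.0524 and 0.0538), and those of *EHF*, *PPARG*, *TCF7L2* and *MNX1* were -0.52, -0.36, -0.19 and 0.13.

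**Figure D4:**
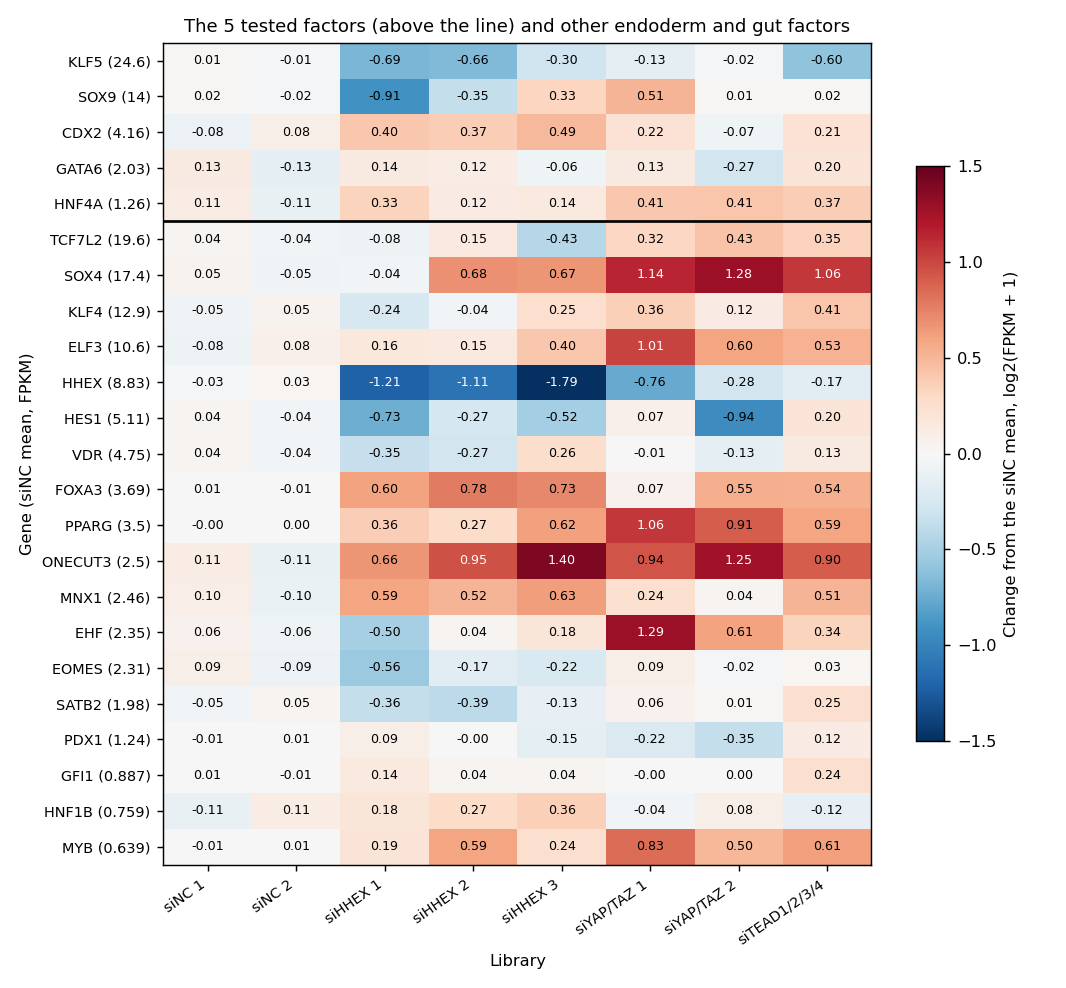
Difference in log2(FPKM + 1) from the siNC mean (colour, and number in each cell) of the 5 tested factors, above the line, and of the 18 other tested endoderm and gut factors, below it. Rows are genes with their siNC mean in FPKM, columns are the 8 libraries, and colours stop at 1.5 in both directions. *KLF5* is below 0 in all 3 siHHEX libraries (-0.69, -0.66 and -0.30) and in siTEAD1/2/3/4 (-0.60), and *CDX2* is above 0 in all 3 siHHEX libraries (0.40, 0.37 and 0.49).

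The close relatives of these factors in the GATA, KLF, SOX, FOXA and CDX families gave a mixed picture, with 20 of 39 genes tested, *CDX2*, *GATA6*, *KLF5* and *SOX9* among them. The highest in siNC were *KLF16* (39.6 FPKM) and *KLF10* (26.0 FPKM), ahead of *KLF5*. In siHHEX 3 rose, *SOX12* (0.88, limma, Benjamini-Hochberg adjusted p = 0.00749), *FOXA3* and *CDX2*, and 3 fell, all of the KLF family, against 32.9% of all tested genes called. *KLF6*, an early response factor, was at 14.2 and 14.7 FPKM in siNC 1 and 2 and at 6.66, 7.90 and 9.33 FPKM in siHHEX 1, 2 and 3, a change of -0.80 (limma, adjusted p = 0.00892). *KLF11* was at 3.15 and 3.21 FPKM in siNC and at 1.82, 1.81 and 1.43 FPKM in siHHEX, a change of -0.64 (limma, adjusted p = 0.0105). It was the 1 gene of the 20 called after the correction for GC and length (-0.50, limma, adjusted p = 0.043), near the 6.75% of all tested genes called there. The corrected changes of *KLF6* and *SOX12* were larger, at -0.58 and 0.59, but missed the threshold (limma, adjusted p of 0.0574 and 0.0573). The siHHEX libraries lay below both siNC libraries for *KLF6* and *KLF11*, and above them for *SOX12*. In siYAP/TAZ 3 of the 20 were called, beside 8.28% of all tested genes. *SOX4* and *SOX12* rose and *KLF16* fell by 0.60 (limma, adjusted p = 0.0452), while *KLF5*, *KLF6* and *KLF11* were not called. *KLF6* was at 11.1 and 9.08 FPKM in siYAP/TAZ 1 and 2, both below siNC, with a change of -0.48 (limma, adjusted p = 0.102), and its difference between siHHEX and siYAP/TAZ was not called either (-0.31, limma, adjusted p = 0.131, and 0.0023 after the correction).

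The epithelial identity of the cells was plain, whereas markers of mature intestine were mostly at or near 0. The keratins *KRT8*, *KRT18* and *KRT19* were at 1649, 908.7 and 706.9 FPKM in siNC, and the epithelial adhesion gene *EPCAM* was at 168 FPKM. Of 34 enterocyte and colonocyte genes, 12 were listed at 0 in all libraries, 18 were too low and 4 were tested. *CDH17* and *VIL1*, the cadherin and the brush border protein of intestinal epithelium that serve as CDX2-linked markers, had maxima of 0.00979 and 0.0335 FPKM over the 8 libraries, and *FABP1* was listed at 0. The highest were the carbonic anhydrase *CA2* (25.04 FPKM in siNC), the peptidase *DPP4* (1.84 FPKM) and the keratin *KRT20* (0.886 FPKM). None of the 4 tested genes was called in siHHEX by limma with Benjamini-Hochberg adjustment (1 at an unadjusted p under 0.05, *USH1C*, which was under 1 FPKM in both siNC libraries and entered the test only through knockdown libraries), beside 32.9% of all tested genes, and *CA2* was at 27.7, 14.7 and 12.2 FPKM in siHHEX 1, 2 and 3. In siYAP/TAZ 1 of the 4 was called, beside 8.28% of all tested genes, and this was *DPP4*, which rose by 0.99 (limma, adjusted p = 0.025).

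The secretory and stem cell genes were followed in the same way. Of 17 goblet and enteroendocrine genes only the synaptic vesicle gene *SYP* was tested (0.471 and 0.385 FPKM in siNC 1 and 2, and 0.811, 0.922 and 1.93 FPKM in siHHEX 1, 2 and 3), while the mucin *MUC2* reached at most 0.0158 FPKM. *SYP* passed the filter only through siHHEX 3 and siTEAD1/2/3/4 (1.05 FPKM), so that its call as higher in siHHEX is not read as a result. The difference from siNC was 0.60, and 0.30 after the correction for GC and length. Of 19 crypt stem cell genes, 12 including *SOX9* were tested, and the defining receptor *LGR5* and the secreted *OLFM4* were listed at 0 throughout. *CD44* was highest at 27.0 FPKM in siNC, followed by *SOX9* and the Wnt regulator *RNF43* (6.66 FPKM). In siHHEX 2 of the 12 were called, beside 32.9% of all tested genes. *PROM1* fell by 0.41 (limma, Benjamini-Hochberg adjusted p = 0.0425), and was at -0.077 after the correction (limma, adjusted p = 0.699). The other was the ephrin receptor *EPHB2*, at 0.601 and 0.609 FPKM in siNC 1 and 2, at 1.55, 1.204 and 1.41 FPKM in siHHEX 1, 2 and 3, and at 1.54 and 1.16 FPKM in siYAP/TAZ 1 and 2. It was also the 1 gene of the 12 called in siYAP/TAZ, beside 8.28% of all tested genes. Since *EPHB2* passed the filter only through the libraries of these knockdowns, its calls are not read as results. After the correction for GC and length none of the 12 was called in either comparison. In those corrected fits 6.75% of all tested genes were called in siHHEX and 11.4% in siYAP/TAZ. Set directly against siYAP/TAZ, siHHEX had 1 of the 12 called, *RNF43*, which was lower (-0.60, limma, adjusted p = 0.0192). The difference between siHHEX and siYAP/TAZ was also called after the correction (-0.63, limma, adjusted p = 0.0347). Of all tested genes, 39.3% were called in this comparison before the correction and 8.88% after it. The 16 stomach, liver and pancreas genes were all untested, 9 of them at 0 throughout, with *SERPINA1* highest at 0.346 FPKM in siNC.

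Among 14 markers of fibroblasts, endothelium, leukocytes and neural cells, 2 were tested, the lysosomal *CD68* at 3.79 FPKM and the collagen *COL1A1* at 0.868 FPKM in siNC. The sums over the 14 genes were 5.18 and 5.10 FPKM in siNC 1 and 2, 4.79, 5.03 and 7.20 FPKM in siHHEX 1, 2 and 3, 9.15 and 8.96 FPKM in siYAP/TAZ 1 and 2 and 7.18 FPKM in siTEAD1/2/3/4, most of it *CD68*. The leukocyte gene *PTPRC* reached at most 0.101 FPKM and the endothelial *PECAM1* at most 0.0292 FPKM. The part of these genes in the results was not tested.

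The genes most like each factor across the 8 libraries were found from Pearson's r of log2(FPKM + 1), as a description, since the libraries share 1 cell line and those of siHHEX share a GC trend. *CDX2* was most like *AKT2* (r = 0.986) and *ECHDC3* (r = 0.98), and *KLF5* was most like *NDUFA12* (r = 0.953) and *PHLDB2* (r = 0.952). *HNF4A* was nearest to *RGL3* (r = 0.963) and *LPIN3* (r = 0.951), *SOX9* to *AMPD3* and *ITGB4* (both r = 0.93), and *GATA6* to *CRTC3* (r = 0.877) and *HIST1H1E* (r = 0.859), a histone gene whose reads near-identical copies may share. After the correction for GC and length these coefficients were between 0.778 and 0.982. The companions of *CDX2* had GC contents of 58.0% and 59.3%, near its 59.6%, and those of *KLF5* had 42.7% and 43.1%, near its 45.3%. Between the factors themselves, r over the 8 libraries was -0.733 for *CDX2* and *KLF5* (-0.422 after the correction) and 0.609 for *KLF5* and *SOX9* (0.563 after the correction).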

How the data were processed

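The 8 RNA-seq libraries of HCT-116 were grouped by their labels. For every gene the authors deposited an FPKM value in each library. The submitters' processing notes name Trimmomatic 0.36, HISAT2 2.0.5, Cufflinks 2.2.1 and HTSeq 0.9.1, and the genome build of the RNA-seq is not given in the sources used here. No count of reads was used, so depth is known only as a ratio, from the spacing of values between 0.0001 and 0.03 FPKM.

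All 4 groups entered 1 limma model (limma 3.58.1, R 4.3.3) of log2(FPKM + 1) with a mean-variance trend. Rows reaching 1 FPKM in 2 or more libraries (10677 of 20030) were tested, p-values were adjusted over all of them with the Benjamini-Hochberg method, and a gene was called at an adjusted p under 0.05. The study names DESeq, a test for counts, which FPKM values do not allow. For the correction, each library was compared with the mean library on the log2 scale, natural splines (4 df each) of GC content and log2 transcript length (GENCODE 44, GRCh38) were fitted to the differences for the 99.44% of tested genes with both, and the fitted values were subtracted. The fits were tested on simulated data with known changes.

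The 8 factors and the gene lists were chosen with earlier results of these data known. Named are the 8 factors, the siRNA targets and, for each factor, the 2 tested genes with the highest r. In each list up to 3 of the genes highest in siNC are named. So are up to 3 called genes with the largest rise and fall in siHHEX and in siYAP/TAZ. Genes listed at 0 in all libraries, cell type markers and the calls of siHHEX against siYAP/TAZ are named beside their counts, and *MYB*, *USH1C* and *CLDN4* were named after their values were seen. The alternatives were another pseudocount, no filter, other samples in the fit, the replicate number as a block, median scaling, GC and length correction, another call rule and leaving out each library.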

Additional observations from a re-analysis of the deposited data

How the results depend on the processing

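The number of calls changed with the setting, for the 5 tested factors and for all genes. In siHHEX against siNC, 2 were called, among 3518 genes. No filter on low values, the correction for GC and length, that correction with the replicate block, and another call rule (2-fold at an unadjusted p under 0.05) each left 0, with 987, 717, 165 and 174 genes called in all. Leaving out 1 library gave 0 to 2, with 19 (without siNC 1) to 4839 (without siHHEX 2) genes in all, and the corrected fit without 1 siHHEX library, added after seeing the data, gave 0 to 1, with 152 to 995 in all. In siHHEX against siYAP/TAZ, 1 was called, among 4200 genes, with 0 under no filter, in a fit of only those groups, under the correction with or without the replicate block, and by the fold criterion, and with 0 to 2 when 1 library was left out (1026 to 5161 genes in all). In siYAP/TAZ against siNC, 0 were called throughout. The genes called in all were 884 in the main fit, 208 with no filter and 1759 in a fit of only those groups. Without an siNC library few genes of any kind were called, so that the 0 says little there. Where leaving out a library left 1 in its group, that library was assumed to vary like those of the other groups. The direction of *KLF5*, *CDX2* and *SOX9* in siHHEX against siNC held under all 17 alternatives, and the call on *KLF5* held in 9 of them and that on *CDX2* in 6.

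Between libraries with the same replicate number, the deviations of the genes had correlations between -0.0704 and 0.0215. In siNC and siYAP/TAZ, with 2 libraries each, the deviations of one library mirror those of the other. Those of siHHEX and siYAP/TAZ also include the differences between siRNAs, so that these values cannot decide whether such libraries belong together. Whether they shared a culture or a sequencing run was not tested. With the number as a block, 1 factor was called in siHHEX against siNC (*KLF5*), 2 in siHHEX against siYAP/TAZ (*KLF5* and *SOX9*) and 0 in siYAP/TAZ against siNC, among 2062, 2937 and 1031 genes in all.

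Directions turned as follows. *GATA6* in siHHEX went from 0.063 (0.20 without siNC 1) to -0.10 under the correction, -0.015 under the correction with the replicate block, -0.070 without siNC 2, and -0.15, -0.14 and -0.015 in the corrected fits without siHHEX 1, 2 and 3. *HNF4A* in siHHEX went to -0.028 in the corrected fit without siHHEX 1. *CDX2* in siYAP/TAZ went from 0.073 (0.22 without siYAP/TAZ 2) to -0.023 under each form of the correction, with the replicate block included, -0.026 under median scaling, -0.011 without siNC 1 and -0.070 without siYAP/TAZ 1. *GATA6* in siYAP/TAZ against siNC went to 0.063 without siNC 1 and 0.13 without siYAP/TAZ 2 (-0.27 without siYAP/TAZ 1), and in siHHEX against siYAP/TAZ to -0.070 without siYAP/TAZ 2 (0.34 without siYAP/TAZ 1). In siTEAD1/2/3/4, *SOX9* went from 0.016 to -0.054 under the correction, -0.047 under median scaling and -0.00017 with siNC 1 as the only control. The causes of these changes were not tested. The filter on low values (1 FPKM in 2 libraries) left *FOXA1*, *FOXA2* and *CDX1* untested.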

Other observations

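Among 8 epithelial markers, all tested, 1 rose and 2 fell in siYAP/TAZ, where 8.28% of all tested genes were called, and 1 rose and 2 fell in siHHEX, where 32.9% were. The keratin *KRT18* was at 900 and 917 FPKM in siNC 1 and 2, at 376 and 404 FPKM in siYAP/TAZ 1 and 2, at 718, 722 and 797 FPKM in siHHEX 1, 2 and 3 and at 681 FPKM in siTEAD1/2/3/4, so that every knockdown library lay below both siNC libraries. It fell by 1.22 in siYAP/TAZ and by 0.29 in siHHEX on the log2 scale (limma, Benjamini-Hochberg adjusted p of 0.000861 and 0.0348), and after the correction for GC and length by 1.30 and 0.68. Its partner *KRT8* fell by 0.88 in siYAP/TAZ (limma, adjusted p = 0.00227) and was at 0.036 in siHHEX, where it was called as lower after the correction (-0.34, limma, adjusted p = 0.0423). The splicing regulator *ESRP1* rose by 0.55 in siYAP/TAZ (limma, adjusted p = 0.0372) and was not called after the correction (0.46, limma, adjusted p = 0.0649). The tight junction gene *CLDN4*, named after its values were seen, was called in siYAP/TAZ only after the correction (0.60, limma, adjusted p = 0.0449). In siHHEX *EPCAM* fell by 0.38 and another such gene, *CLDN7*, rose by 0.39 (limma, adjusted p of 0.0289 and 0.0486), and neither was called after the correction, with *EPCAM* at -0.26 (95% interval -0.451 to -0.0615) and *CLDN7* at 0.070 (limma, adjusted p of 0.102 and 0.738).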
